A study of Mus musculus with 4 samples.

Results

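The state of the adipocyte progenitors in ingWAT, the inguinal depot of white fat that lies under the skin of the mouse, was read from 9 marker genes in whole-tissue RNA. Of these, *Dpp4*, *Pi16*, *Wnt2*, *Anxa3* and *Cd55* mark interstitial progenitors, *Icam1*, *Dlk1* and *Pdgfra* mark committed preadipocytes, and *F3* marks regulatory cells. They were taken by symbol from the 19030 genes listed, and all 9 were found, once each. Their level was measured in 4 libraries, 2 from Ctrl mice and 2 from cKO mice.

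New fat cells arise from fibroblast-like cells of the connective tissue. *Dpp4*-positive interstitial progenitors lie in the fibrous sheath around the depot and give rise to *Icam1*-positive preadipocytes, which are closer to the mature fat cell and lie among the adipocytes. Cells positive for CD142, the protein encoded by *F3*, form another stromal population, described as restraining the differentiation of their neighbours. *Pdgfra* and, less specifically, several of the other markers are also expressed by fibroblasts in general, so a single marker does not identify a cell type in bulk tissue.

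By the labels, both groups were C57BL/6 mice 3 months of age, kept at 4°C. Both carried *Oct3* (gene symbol *Slc22a3*), the gene of organic cation transporter 3, with loxP sites around an exon on both alleles. Ctrl mice had the floxed alleles without Cre, and cKO mice carried in addition an Adiponectin-Cre transgene, which is driven by a promoter active in differentiated adipocytes. The progenitors described here are therefore not the cells in which the Cre is meant to act. The study's methods describe male mice, give a younger age at use than the labels do, and describe the cold exposure differently from a legend. The number of mice behind each library is not given in the sources used here, and no other condition was sequenced, so no library of mice kept at room temperature stands beside these.

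The expression of each gene was given as FPKM, the fragments of a gene scaled by its transcript length and by the size of the library, so that levels can be compared between genes. The table holds no read counts. From the steps between the lowest values the depth was estimated at 17650000 to 18800000 reads per library. *Slc22a3* stood at 17.0 and 17.7 FPKM in the Ctrl libraries and at 9.07 and 9.50 FPKM in the cKO libraries, a log2 fold change of -0.83 ± 0.066 (SE), and the adjusted p was 0.00044. Its level was thus lower in both cKO libraries, as their labels would have it, although a deleted exon need not lower the whole transcript.

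The 2 genotypes also differed in RNA of other cell types, which touches every comparison that follows. The 9 markers of skeletal muscle summed to 1503 and 2209 FPKM in the Ctrl libraries and to 63.1 and 64.5 FPKM in the cKO libraries. *Acta1*, skeletal muscle actin, was at 493 and 321 FPKM in Ctrl and at 2 and 1.31 FPKM in cKO. The muscle markers made up 0.451% of all FPKM at the most. Ctrl replicate 1, the library with more muscle RNA, also had the higher level of *Dpp4*, *Pi16*, *Wnt2*, *Anxa3*, *Pdgfra* and *F3* of the 2 Ctrl libraries. The part of the muscle RNA in the results was not tested, and as all Ctrl libraries hold it and no cKO library does to a like degree, it cannot be told apart from the genotype.

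The members that lead the comparison are shown with the 250 bases before their transcript start, from RefSeq sequences of build GRCm38.p6. The letters are read 5′ to 3′ on the strand of the gene and can be set beside its level. The start used can lie inside the span given for the gene below. The window of *Wnt2* lies wholly within that span, as do those of *Cd55*, *Dlk1* and *Pdgfra*, which are not printed. Those of *Pi16* and *Dpp4* overlap it in part, and that of *Icam1* lies before it. *Pi16*, *Dpp4* and *Wnt2* had the 3 largest falls, and *Icam1* was the member that rose. Windows were found for 8 of the 9 members, and *Anxa3* had no entry. *Pi16* is shown from chr17:29318632-29318881 on the plus strand, *Dpp4* from chr2:62412232-62412481 on the minus strand, *Wnt2* from chr6:18030446-18030695 on the minus strand and *Icam1* from chr9:21015690-21015939 on the plus strand. Capitals mark matches, on either strand, to the TATA box TATAAA, the GC box GGGCGG, the CCAAT box CCAAT, the cAMP response element TGACGTCA and its shorter core TGACG, or the AP-1 site TGAGTCA, and the core is contained in the full element.
Pi16: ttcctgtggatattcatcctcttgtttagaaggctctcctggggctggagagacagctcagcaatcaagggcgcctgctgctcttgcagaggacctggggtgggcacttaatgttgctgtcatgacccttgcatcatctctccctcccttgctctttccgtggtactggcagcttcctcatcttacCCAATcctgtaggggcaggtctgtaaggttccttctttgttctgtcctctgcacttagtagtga
Dpp4: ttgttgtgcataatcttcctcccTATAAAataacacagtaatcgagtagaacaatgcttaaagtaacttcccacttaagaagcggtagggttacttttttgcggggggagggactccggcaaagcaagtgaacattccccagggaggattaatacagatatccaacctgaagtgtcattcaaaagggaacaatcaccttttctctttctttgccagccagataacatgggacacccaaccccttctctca
Wnt2: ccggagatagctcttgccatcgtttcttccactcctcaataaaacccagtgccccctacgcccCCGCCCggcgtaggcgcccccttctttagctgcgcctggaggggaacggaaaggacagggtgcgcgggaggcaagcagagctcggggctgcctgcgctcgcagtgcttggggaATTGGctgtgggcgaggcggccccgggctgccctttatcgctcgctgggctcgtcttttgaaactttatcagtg
Icam1: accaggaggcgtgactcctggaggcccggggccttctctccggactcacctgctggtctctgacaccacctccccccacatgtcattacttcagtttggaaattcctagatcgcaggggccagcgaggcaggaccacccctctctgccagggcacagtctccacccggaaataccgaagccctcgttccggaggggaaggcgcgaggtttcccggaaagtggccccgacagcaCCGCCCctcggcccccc

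The windows of the members had little in common. *Pi16* held a CCAAT box alone, with its first base 64 bases before the start, and *Wnt2* held a CCAAT box and a GC box. A CCAAT box was found in 33.8% and a GC box in 32.7% of all 32851 windows of this length. *Dpp4* held 1 TATAAA, 227 bases before the start, a match found in 12.4% of all windows. *Icam1* held a GC box, as did *Cd55* and *F3*, which are not printed. The core TGACG was present in *Cd55*, *Dlk1* and *Pdgfra*, against 17.8% of all windows, and the full element TGACGTCA in none of the 8, against 1.55%. *F3* was the only member with TGAGTCA, which 4.46% of all windows hold. The GC content of the windows ranged from 43.6% in *Dpp4* to 70.0% in *F3*, with *Pi16* at 52.4% and *Icam1* at 65.2%, and its median over all windows was 52.4%. No match was common to all the members called lower that had a window. *Pi16* and *Wnt2* shared the CCAAT box, and *Wnt2* and *F3* shared the GC box. *Anxa3* had no window to search. A match is a run of letters and not a measured site.

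Progenitor markers were mostly lower in cKO ingWAT, with *Pi16* by far the most. Of the 8 members with a mean of at least 1 FPKM, which were tested, 6 were lower in cKO, 1 was higher and 1 was not called at an adjusted p under 0.05 (limma). Over all 12658 genes tested, 13.8% were called lower and 12% were called higher. The median log2 fold change of the tested members was -0.585, beside -0.006 over all genes tested. The cKO libraries were both lower than either Ctrl library for 6 of the 8 tested members, beside 34.6% of all genes tested, and both higher for 1, beside 31.9%. In bulk tissue, fewer cells of a type and less RNA per cell cannot be told apart, and since nothing states that the libraries came from separate animals, the p-values measure only the spread between these libraries, which may be technical.

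**Figure D1:**
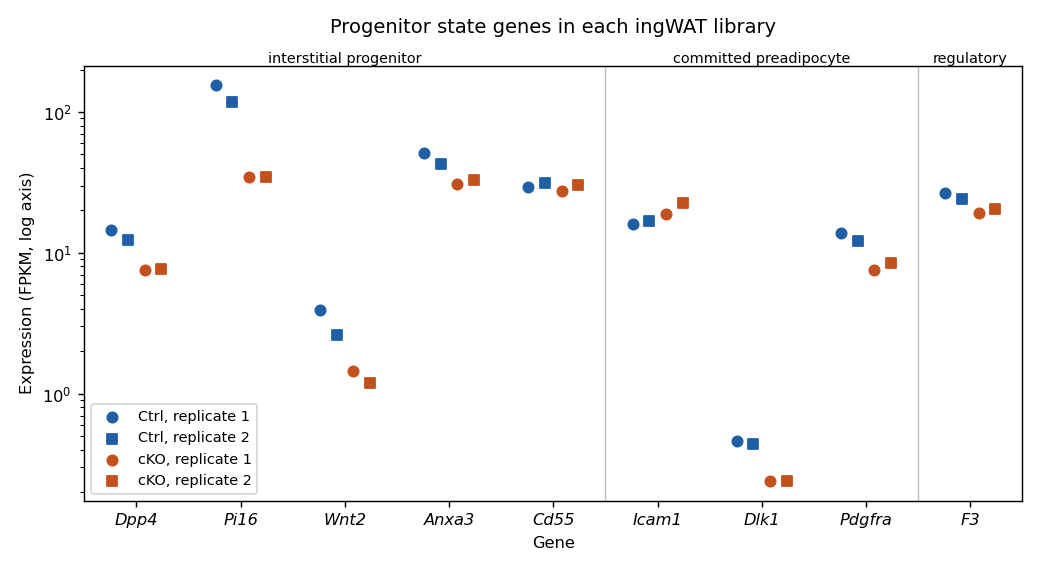
Level of the 9 progenitor state genes in each of the 4 ingWAT libraries, in FPKM on a log axis. Blue points are Ctrl and orange points cKO, circles are replicate 1 and squares replicate 2. The cKO points lie below the Ctrl points for 7 genes, above them for Icam1, and overlap for Cd55.

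*Pi16*, which encodes peptidase inhibitor 16, a secreted and membrane-bound protein of fibroblasts, lies at chr17:29318796-29328903. It was the most abundant member, at 154 and 118 FPKM in the Ctrl libraries, and stood at 34.6 and 34.4 FPKM in the cKO libraries. The groups were far apart, and the cKO libraries were nearly equal. The mean fell from 136 ± 25.8 to 34.5 ± 0.141 FPKM (SD, n = 2), to 25.4% of Ctrl, and the log2 fold change was -1.94 ± 0.12 (SE). The adjusted p was 0.00018 (limma), and the fall was the 51st largest of the genes tested. It remained called under every alternative run, with log2 fold changes between -2.13 and -1.74.

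*Dpp4* at chr2:62330073-62412315 encodes dipeptidyl peptidase 4, a surface enzyme that cleaves incretins and chemokines and by which these cells are sorted. It was measured at 14.5 and 12.3 FPKM in Ctrl and at 7.54 and 7.65 FPKM in cKO. The 2 cKO libraries were nearly equal and lay clearly under both Ctrl libraries. The mean was 13.4 ± 1.57 FPKM in Ctrl and 7.60 ± 0.0778 FPKM in cKO (SD, n = 2), a log2 fold change of -0.74 ± 0.088 (SE), with an adjusted p of 0.0016 (limma). It remained called when any of the libraries was left out.

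*Wnt2* at chr6:17985474-18032772 encodes a secreted Wnt ligand. Its level was low, at 3.90 and 2.60 FPKM in Ctrl and at 1.46 and 1.2 FPKM in cKO, or about 163 and 105 against 57.2 and 47.6 reads by the estimated depth. The groups did not overlap, but the Ctrl libraries differed from each other by more than the lower of them differed from the higher cKO library. The log2 fold change on log2(FPKM + 1), which understates the change of a low gene, was -0.85 ± 0.16 (SE) with an adjusted p of 0.0089 (limma). The call was lost without Ctrl replicate 1, at an adjusted p of 0.070, without cKO replicate 2, at 0.053, and with no filter on low values, at 0.073.

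*Anxa3* at chr5:96793385-96845968 encodes annexin A3, a calcium-dependent phospholipid-binding protein. It was at 51.0 and 42.4 FPKM in Ctrl and at 30.7 and 32.9 FPKM in cKO. All cKO values were lower, by less in proportion than those of *Pi16*. The log2 fold change was -0.53 ± 0.091 (SE) and the adjusted p 0.0063 (limma). The adjusted p was 0.051 without Ctrl replicate 1, 0.051 without cKO replicate 1 and 0.061 with no filter on low values.

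*Cd55* at chr1:130429798-130465009 encodes decay-accelerating factor, which protects cells from complement. It was at 29.2 and 31.1 FPKM in Ctrl and at 27.3 and 30.3 FPKM in cKO. The groups overlapped. The log2 fold change was -0.07, with a 95% interval from -0.24 to 0.10 and an adjusted p of 0.53 (limma), so that a fall of the size seen for the other 4 interstitial markers lay outside the interval. Without cKO replicate 1 the estimate was 0.0046.

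*Icam1* at chr9:21015940-21028814 encodes an adhesion molecule that binds the integrin LFA-1 of leukocytes and is also made by endothelium and immune cells. It was at 16.0 and 16.9 FPKM in Ctrl and at 19.0 and 22.7 FPKM in cKO. Both cKO libraries were above both Ctrl libraries, and they were further apart from each other than the Ctrl libraries were. The log2 fold change was 0.32 ± 0.090 (SE), with an adjusted p of 0.038 (limma). This call was weak, as the adjusted p was 0.22 without Ctrl replicate 1, 0.13 without Ctrl replicate 2, 0.13 without cKO replicate 2, 0.14 with no filter and 0.069 without the trend of the variance on the mean.

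*Pdgfra* at chr5:75151322-75198206 encodes the alpha receptor of platelet-derived growth factor, by which preadipocytes and fibroblasts respond to it. It was at 13.8 and 12.2 FPKM in Ctrl and at 7.55 and 8.51 FPKM in cKO. The groups were well apart, at nearly the same levels as *Dpp4*. The log2 fold change was -0.63 ± 0.088 (SE), with an adjusted p of 0.0029 (limma) that rose to 0.053 without Ctrl replicate 1.

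*Dlk1* at chr12:109452485-109463336 encodes Pref-1, a membrane protein that holds preadipocytes back from differentiation. It was at 0.46 and 0.44 FPKM in Ctrl and at 0.24 FPKM in both cKO libraries. By the estimated depth this is between 4.6 and 35.2 reads per library, depending on the transcript, and its mean was under the filter, so it was not tested. With no filter its log2 fold change was -0.23, with an adjusted p of 0.049 (limma).

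*F3* at chr3:121723537-121735052 encodes tissue factor, the surface protein that starts blood coagulation. It was at 26.6 and 23.9 FPKM in Ctrl and at 19.2 and 20.4 FPKM in cKO. The groups did not overlap and the change was small. The log2 fold change was -0.33 ± 0.072 (SE), with an adjusted p of 0.015 (limma). Without Ctrl replicate 1 the adjusted p was 0.13, without cKO replicate 1 it was 0.082, and with no filter it was 0.067.

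**Figure D2:**
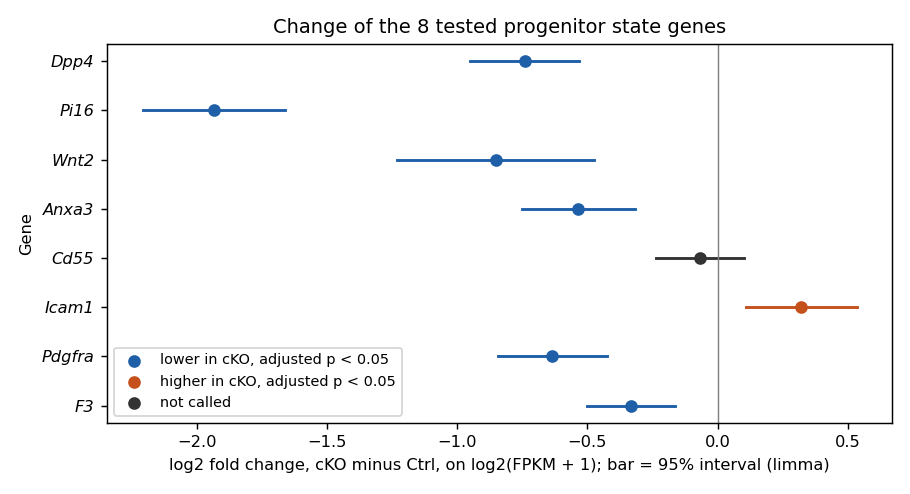
Log2 fold change, cKO minus Ctrl, of the 8 tested members with its 95% interval from limma. Pi16 lies farthest to the left at -1.94, the interval of Cd55 spans 0, and Icam1 alone lies to the right, at 0.32.

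With these changes the order of the levels shifted. In Ctrl the means fell from *Pi16* at 136 FPKM over *Anxa3* at 46.7, *Cd55* at 30.2, *F3* at 25.2 and *Icam1* at 16.4 to *Dpp4* at 13.4 and *Pdgfra* at 13.0 FPKM, with *Wnt2* at 3.25 and *Dlk1* at 0.45 FPKM last. The last pair of similar genes, *Dpp4* and *Pdgfra*, overlapped between libraries, and the other neighbours in this order did not. In cKO *Pi16* at 34.5 FPKM stood just above *Anxa3* at 31.8 and *Cd55* at 28.8 FPKM, with *Icam1* at 20.8 FPKM now ahead of *F3* at 19.8 FPKM. *Icam1* and *F3* overlapped between the cKO libraries, as did *Pdgfra* at 8.03 and *Dpp4* at 7.60 FPKM. Leaving out Ctrl replicate 1 reduced the members called lower from 6 to 2, which were *Pi16* and *Dpp4*.

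Relations between the states within a library were described by dividing each level by that of *Pdgfra*, with no test. The ratio of *Pi16* to *Pdgfra* was 11.2 and 9.63 in Ctrl and 4.58 and 4.04 in cKO. *Dpp4* kept close to *Pdgfra*, with ratios of 1.05 and 1.01 in Ctrl and 0.999 and 0.899 in cKO. The ratio of *Wnt2* was 0.282 and 0.213 in Ctrl and 0.193 and 0.141 in cKO, lower in both cKO libraries like that of *Pi16*. The ratio of *Anxa3* was 3.68 and 3.47 in Ctrl and 4.07 and 3.86 in cKO, and that of *Cd55* was 2.11 and 2.55 in Ctrl and 3.61 and 3.56 in cKO. *Icam1* and *Pdgfra*, which are both markers of committed preadipocytes here, parted, with a ratio of 1.15 and 1.38 in Ctrl and 2.51 and 2.67 in cKO. The ratio of *F3* was 1.92 and 1.96 in Ctrl and 2.55 and 2.39 in cKO.

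**Figure D3:**
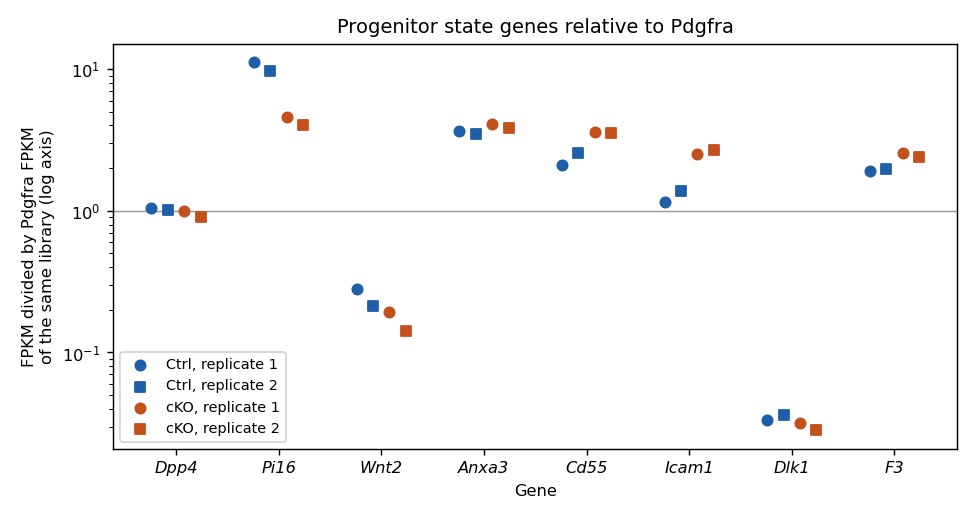
FPKM of each member divided by the FPKM of Pdgfra in the same library, on a log axis, with symbols as for the levels. Pi16 is lower in both cKO libraries, at 4.58 and 4.04, and Icam1 is higher, at 2.51 and 2.67.

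Against *Dcn*, decorin, an abundant matrix proteoglycan of fibroblasts, the level of *Dpp4* was not lower in cKO. Its ratio was 0.0219 and 0.0215 in Ctrl and 0.0245 and 0.0221 in cKO. The ratio of *Pdgfra* to *Dcn* was likewise not lower, at 0.0209 and 0.0214 in Ctrl and at 0.0246 and 0.0246 in cKO. The ratio of *Pi16* to *Dcn* was 0.233 and 0.206 in Ctrl and 0.113 and 0.0996 in cKO. Against *Col1a1*, a chain of type I collagen, which was not called at -0.22, the picture was different. The ratio of *Dpp4* to *Col1a1* was 0.104 and 0.106 in Ctrl and 0.0665 and 0.0723 in cKO, and that of *Pdgfra* was 0.0989 and 0.105 in Ctrl and 0.0666 and 0.0804 in cKO. The ratios of *Pi16*, *Wnt2* and *Anxa3* to *Col1a1* were also lower in both cKO libraries than in either Ctrl library. To *Dcn*, however, the ratio of *Anxa3* was higher, at 0.0770 and 0.0741 in Ctrl and at 0.0999 and 0.0952 in cKO. That of *Wnt2* to *Dcn* overlapped, at 0.00589 and 0.00455 in Ctrl and at 0.00475 and 0.00347 in cKO. Whether *Dpp4*, *Pdgfra*, *Wnt2* and *Anxa3* were lower relative to other stromal RNA thus depended on the reference gene, whereas *Pi16* was lower against both. These ratios have no test, and *Dcn* itself fell.

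Other genes of interstitial progenitors moved like the members. Of 12 such genes, all tested, 11 were called lower and 1 higher, beside 13.8% and 12% of all genes tested. Their median change was -0.83 on the log2 scale, beside -0.006 for all genes. *Smpd3*, a neutral sphingomyelinase, was at 8.48 and 6.35 FPKM in Ctrl and at 2.43 and 2.58 FPKM in cKO, a log2 fold change of -1.25 ± 0.13 (SE). *Efhd1*, a mitochondrial calcium-binding protein, changed by -1.24 ± 0.11 (SE) on the log2 scale. The most abundant were *Ly6c1*, a surface antigen shared with endothelium, at -0.36, and *Fn1*, fibronectin, at -0.53. *Axin2*, a feedback inhibitor and target of Wnt signalling, was the gene that rose. It went from 3.85 and 3.51 FPKM to 5.50 and 6.18 FPKM, a log2 fold change of 0.55. With the filter at 5 FPKM the count called lower was 6 and the count called higher 0. The count called lower was 5 without Ctrl replicate 1, 7 without cKO replicate 2 and 5 with no filter, and the count called higher was 0 when either Ctrl library was left out.

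Genes of committed preadipocytes, many of which mature adipocytes express as well, were also lower. Of 13 other genes on this list 11 were called lower and 0 higher, beside 13.8% and 12% of all genes tested. Their median was -0.40. *Dpep1*, a membrane dipeptidase, was at 73.9 and 62.7 FPKM in Ctrl and at 35.2 and 35.0 FPKM in cKO, a log2 fold change of -0.94 ± 0.082 (SE). *Cxcl14*, a chemokine, changed by -0.92 ± 0.088 (SE). The most abundant were *Fabp4*, the fatty acid carrier of adipocytes, at -0.25, and *Apoe*, an apolipoprotein, at -0.16, and neither was called. Because *Icam1* was higher, it went the other way from the rest of the list it belongs to. The count called lower was 6 without Ctrl replicate 1 and 7 with no filter.

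Genes of the regulatory cells showed smaller changes. Of 11 other genes 9 were tested, with a median of -0.21. Of these 4 were called lower and 1 higher, beside 13.8% and 12% of all genes tested, so the count called higher is near that share. *Vit*, vitrin, a matrix protein, was at 3.18 and 2.80 FPKM in Ctrl and at 1.83 and 1.43 FPKM in cKO, with a log2 fold change of -0.60. *Meox2*, a homeobox factor, changed by -0.35, and *Mgp*, matrix Gla protein, by -0.19. *Abcg1*, a cholesterol exporter that macrophages also express, was higher by 0.38. *Bgn*, biglycan, the most abundant, was at 86.9 ± 0.778 FPKM in Ctrl and 87.6 ± 4.97 FPKM in cKO (SD, n = 2) and was not called. The count called lower was 0 when either Ctrl library was left out and 0 with no filter, and 2 when either cKO library was left out. The count called higher was 0 without Ctrl replicate 1, without Ctrl replicate 2, without cKO replicate 2 and with no filter.

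The general stromal genes, which were not listed here as markers of a single state, were mostly lower as well. Whether they differ between the states was not tested. Of 15 genes 10 were called lower and 1 higher, beside 13.8% and 12% of all genes tested. Their median was -0.40 on the log2 scale. *Cd34*, a sialomucin of progenitors and endothelium, fell from 96.1 and 82.3 FPKM to 42.7 and 42.4 FPKM, a log2 fold change of -1.05 ± 0.079 (SE). *Dpt*, dermatopontin, changed by -0.99 ± 0.075 (SE) and *Dcn* by -0.92 ± 0.094 (SE). *Cd24a*, a surface glycoprotein also of B cells, was higher by 0.36. The count called higher was 0 with no filter and 0 with no trend in the variance. It was 2 with median-of-ratios scaling and 2 with the filter at 5 FPKM. Without Ctrl replicate 1 the count called lower was 5. The count called higher was 0 without Ctrl replicate 1, without Ctrl replicate 2 or without cKO replicate 2, and 2 without cKO replicate 1.

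Among the regulators of adipogenesis, 18 of 19 were tested, with a median of -0.26. Of these 9 were called lower and 1 higher, beside 13.8% and 12% of all genes tested. *Wnt10b*, a Wnt ligand that inhibits adipogenesis, was at 2.88 and 2.10 FPKM in Ctrl and at 1.08 and 0.99 FPKM in cKO, a log2 fold change of -0.77 ± 0.14 (SE). *Zfp521*, a zinc finger repressor of adipogenic commitment, changed by -0.59 ± 0.11 (SE). *Cebpa*, a factor of terminal differentiation and the most abundant of the list, changed by -0.28. *Cebpb*, which acts early in differentiation and responds to cAMP, rose from 62.9 and 52.2 FPKM to 84.4 and 83.7 FPKM, a log2 fold change of 0.55 ± 0.088 (SE). The factors that fell thus include both inhibitors and activators of adipogenesis. With no filter the count called higher was 0. Without Ctrl replicate 1 the count called lower was 2, without Ctrl replicate 2 it was 5, and with no filter it was 4.

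**Figure D4:**
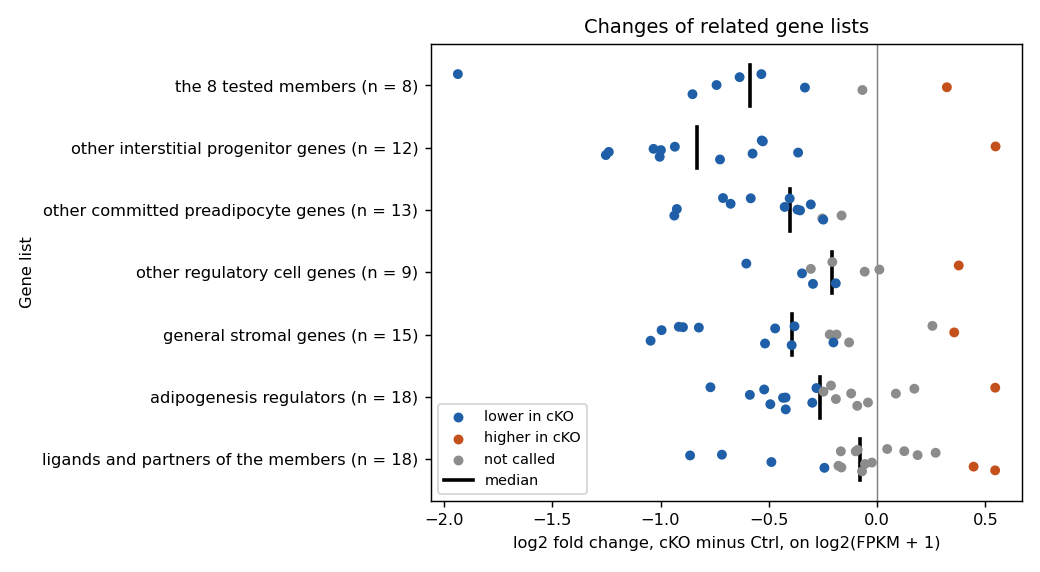
Log2 fold change, cKO minus Ctrl, of each tested gene of the members and of 6 related lists, with blue for genes called lower, orange for genes called higher and grey for the rest. Black bars are medians, which run from -0.83 for the other interstitial progenitor genes to -0.08 for the ligands and partners.

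Ligands and partners of the members had a median near that of all genes, at -0.08. Of 20 genes 18 were tested, with 4 called lower and 2 higher, beside 13.8% and 12% of all genes tested. The count called higher is thus near the share over all genes. The genes that rose form LFA-1, the receptor of Icam1 on leukocytes, as *Itgb2* went from 23.9 and 22.8 FPKM to 34.8 and 34.3 FPKM, a log2 fold change of 0.54 ± 0.058 (SE), and *Itgal* changed by 0.45 ± 0.12 (SE). *Pdgfc*, a ligand of the Pdgfra receptor, fell by 0.72 on the log2 scale. The most abundant were *C3*, the central complement component, at -0.17, and *Cd59a*, an inhibitor of the membrane attack complex, at -0.09, and neither was called. The count called lower was 2 without Ctrl replicate 1, 2 without Ctrl replicate 2, 2 without cKO replicate 1 and 2 with no filter. The count called higher was 1 without Ctrl replicate 1, without Ctrl replicate 2, without cKO replicate 2 and with no trend in the variance, and 3 with no filter.

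Coagulation partners of *F3* on this list, chosen for mention after their values were seen, did not all move the same way. *F7* and *F10* had higher values in cKO, and *Tfpi* had lower ones. *F7*, the protease that F3 binds, was at 0.03 and 0.09 FPKM in Ctrl and at 1.28 and 0.93 FPKM in cKO. *F10*, the substrate of that complex, was at 0.13 and 0.19 FPKM in Ctrl and at 1.08 and 1.18 FPKM in cKO. Both had a mean under 1 FPKM and were not tested. *Tfpi*, tissue factor pathway inhibitor, was tested, at 8 and 7.79 FPKM in Ctrl and at 4.72 and 6.03 FPKM in cKO. Its log2 fold change was -0.49 ± 0.11 (SE), with an adjusted p of 0.016 (limma), and it was called lower.

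For each called member the 3 tested genes with the closest pattern were found, as the smallest root mean square distance of the 4 centred log2(FPKM + 1) values. Those of *Dpp4* were *Mmp2*, a matrix metalloproteinase, at a distance of 0.0069, *Podn*, a small leucine-rich proteoglycan, at 0.0090, and *Antxr1*, a collagen-binding receptor, at 0.014. Those of *Pi16* were *Art1* at 0.038, *Tpm2* at 0.043 and *Ank1* at 0.051, and all of these are expressed in skeletal muscle. *Tpm2*, a tropomyosin, was at 45.0 and 33.9 FPKM in Ctrl and at 9.08 and 8.74 FPKM in cKO, whereas *Art1* was at 3.29 and 2.48 FPKM in Ctrl and at 0 and 0.04 FPKM in cKO. The measure rests on 4 libraries in 2 groups, so it compares little beyond the size of the genotype difference on the log2(FPKM + 1) scale. That scale shrinks the change of a low gene such as *Art1*, whose match with *Pi16* is therefore not a match in fold change. The part of muscle RNA in the level of *Pi16* was not tested.

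The neighbours of *Wnt2* were *Tdo2* at 0.018, *Sfrp4*, a secreted Wnt antagonist, at 0.041 and *Fez1* at 0.053. *Anxa3* lay closest to *Gpr34* at 0.0036, *Vgll3* at 0.020 and *Shc2* at 0.023. *Pdgfra* lay closest to *Amd1*, an enzyme of polyamine synthesis, at 0.013, *Sema3b* at 0.015 and *Antxr2* at 0.016, and *F3* to *Cpxm1* at 0.0067, *Kremen1* at 0.0071 and *Arhgap32* at 0.0076. *Icam1* was nearest to *Smc4*, a condensin subunit, at 0.0066, *Flt3*, a receptor of blood cell progenitors and dendritic cells, at 0.0091, and *Adgrg5* at 0.0092. *Flt3* was at 2.59 and 2.80 FPKM in Ctrl and at 3.21 and 4.08 FPKM in cKO.

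Markers of other cells were read beside the members. Their counts stand beside 13.8% called lower and 12% called higher of all genes tested. Lymphocyte and lymph node markers were higher in cKO, in the direction of *Icam1*. The 4 B cell markers, all called higher, summed to 190 and 215 FPKM in Ctrl and to 305 and 345 FPKM in cKO, with *Cd79a* the most abundant at 88.8 and 101 against 147 and 167 FPKM. Of the 5 T cell markers 4 were called higher, and their sum went from 62.8 and 68.3 to 88.3 and 117 FPKM, with *Cd3g* the most abundant. The lymph node stroma markers summed to 251 and 316 FPKM in Ctrl and to 365 and 482 FPKM in cKO, with 2 of 3 tested called higher and the most abundant, *Ccl21a*, not called. Their part in the level of *Icam1* was not tested.

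Nerve sheath markers went in the direction of the interstitial markers. The 5 Schwann cell markers summed to 162 and 149 FPKM in Ctrl and to 71.1 and 76.7 FPKM in cKO, with 4 called lower and *S100b* higher. All 8 skeletal muscle markers tested were called lower, and the 3 markers of muscle satellite cells summed to at most 0.49 FPKM in any library, with *Myod1* the highest. Endothelial markers summed to 256 and 252 FPKM in Ctrl and to 215 and 230 FPKM in cKO, with 3 of 7 called lower and *Pecam1*, the most abundant, not called. The part of muscle and nerve in the lower progenitor markers was not tested.

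The adipocytes, in which the Cre acts, differed too. The 3 thermogenic markers were all called higher, with *Ucp1*, the uncoupling protein of brown and beige fat, at 335 and 446 FPKM in Ctrl and at 1658 and 1420 FPKM in cKO. The 5 mature adipocyte markers summed to 4965 and 4707 FPKM in Ctrl and to 3489 and 3648 FPKM in cKO, with 3 called lower, and the most abundant, *Retn*, resistin, was at 1799 and 1680 against 950 and 1074 FPKM. The proliferation markers *Mki67* and *Top2a* were not called, and summed to 3.67 and 4.07 FPKM in Ctrl and to 4.35 and 4.38 FPKM in cKO.

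The remaining types moved in different directions. Macrophage markers summed to 737 and 668 FPKM in Ctrl and to 751 and 781 FPKM in cKO, with 1 of 5 called higher and 2 lower, and *Lyz2*, the most abundant, not called. The 6 neutrophil markers summed to 8.10 and 8.85 FPKM in Ctrl and to 19.8 and 20.2 FPKM in cKO, and the 2 tested were called higher, *S100a8* being the most abundant at 3.49 and 3.26 against 9.52 and 10.1 FPKM, while the defining markers *Ly6g* and *Mpo* were at or under 0.09 FPKM. Of the smooth muscle and pericyte markers 3 of 6 were called lower and 1 higher, with a sum of 137 to 153 FPKM, and *Rgs5*, the most abundant, lower. The lymphatic endothelial markers summed to 24 to 32.9 FPKM with 1 of 2 tested called lower, *Lyve1*, and the erythroid markers to 1909 to 2431 FPKM with 1 of 4 called lower, and *Hba-a1*, the most abundant, not called. Mesothelial markers, led by *Krt19*, summed to at most 2.10 FPKM and epithelial markers, led by *Krt10*, to at most 3.01 FPKM.

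**Figure D5:**
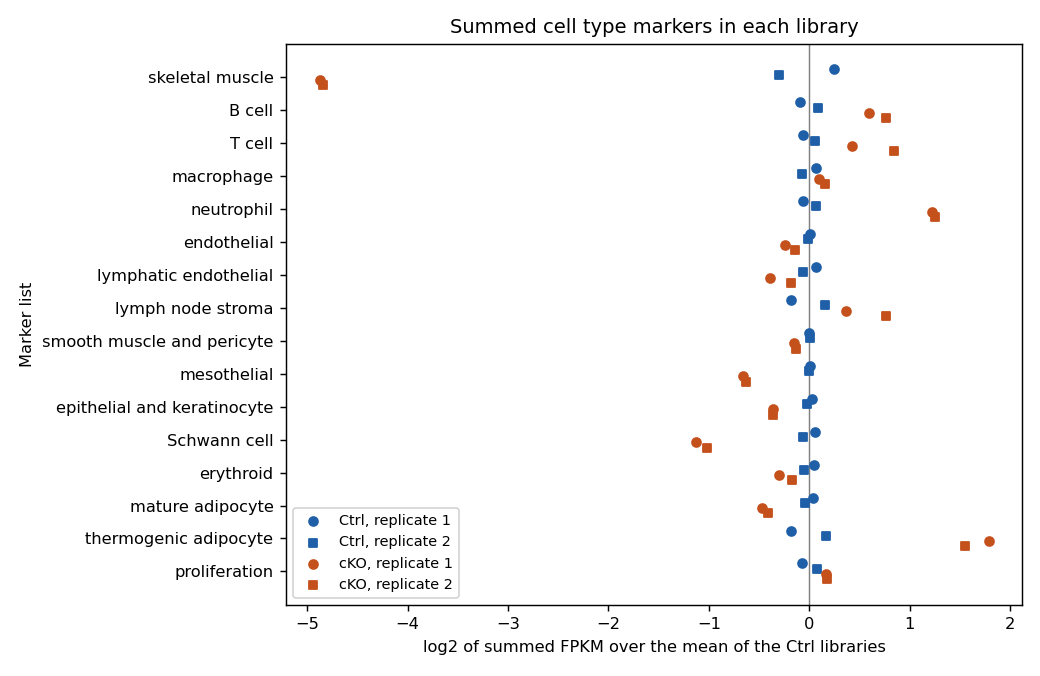
Summed FPKM of each cell type's markers in each library, as log2 of its ratio to the mean of the Ctrl libraries, with symbols as for the levels. Skeletal muscle lies near -5 in both cKO libraries, Schwann cell near -1, and the B cell, T cell and lymph node markers above 0.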

How the data were processed

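Polyadenylated RNA of ingWAT in 2 Ctrl and 2 cKO libraries was read by the authors as single-end reads of 50 bases. The deposited values are FPKM, rounded to the hundredth, with no scaling between libraries stated. The submitters' processing notes name HISAT2 2.0.4, RSEM 1.2.12 and mm10. The sample labels give 4°C and 3 months, and the methods add a milder first week. Columns of the table were matched to samples by their names, and 0 per-sample columns were left unused. The table holds no comparison by the authors.

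Genes with a mean of at least 1 FPKM over the 4 libraries (12658 of 19030) were compared by limma 3.58.1 (R 4.3.3) after taking log2(FPKM + 1). The moderated variance was allowed to follow the mean (eBayes with trend), and p-values were adjusted by Benjamini-Hochberg across the tested genes. A gene was called at an adjusted p under 0.05. The procedure was tested on simulated data. Read counts were not used here, so no test on counts was run. Depth was estimated from the value steps of 319 genes of at most 400 bases, up to 6 reads, with 37 bases taken off the length, and 84.5% to 89.6% of the values used came out whole within 0.1.

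The members and the lists were chosen with earlier results of these data known. Named are all members, *Slc22a3*, of each related list up to 2 called genes with the largest rise, up to 2 with the largest fall and the 2 of highest mean, of each cell type list the gene of highest mean, and for each called member the 3 genes of closest pattern. Others are marked, and 2 genes that this rule would name are not reported here. Gene positions and windows come from RefSeq, GRCm38.p6, in which 18977 of the gene IDs were found, and differ in patch level only from mm10. Other settings tried were each library left out in turn, a block for the replicate number, scaling by median of ratios or by quantiles, 0.1 in place of the pseudocount of 1, a filter at 5 FPKM or none, variance moderation with no trend, and a required absolute log2 fold change of 1. Python 3.11.15, pandas 2.3.3, numpy 2.4.6 and matplotlib 3.10.9 were used for the other steps.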

Additional observations from a re-analysis of the deposited data

How the results depend on the processing

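The members called lower (6) and higher (1) were the same in number with a pseudocount of 0.1, median-of-ratios scaling, quantile normalization and the replicate block. With no filter on low values the members called higher were 0 and lower 4 (*Pi16*, *Dpp4*, *Pdgfra* and *Dlk1*), and over all genes 667 were called higher and 1095 lower. With eBayes without a trend 0 members were called higher. With an absolute log2 fold change of at least 1 the members called were 0 higher and 1 lower, and 81 genes were higher and 152 lower, as that threshold is stricter by construction. Leaving out 1 library at a time gave 0 to 1 members higher and 2 to 6 lower, and over all genes 358 to 1071 higher and 519 to 1434 lower, with a lone library assumed to vary like the other group. The lowest counts over all genes, and of members lower, came without Ctrl replicate 1, and the cause was not tested. The deviations of same-numbered libraries from their group means correlated at 0.0148 across genes. With 2 libraries per genotype this value cannot show whether same-numbered libraries were paired. With the replicate block 1594 genes were called higher and 1789 lower. Of the single members, *Pi16* and, except for the threshold on the fold change, *Dpp4* remained called under every alternative. Depth limits *Dlk1* and *Wnt2*, and 2 libraries per genotype limit all calls.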
